A study of Mus musculus with 6 samples.

Results

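Single-exon exonic circles are circRNAs in which the end of 1 exon is joined back to the start of the same exon. They were taken here as every listed circRNA of the exonic class with an exon count of 1, and 338 of the 7469 listed circRNAs (4.53%) met this rule, which is 5.28% of the 6406 exonic circRNAs. They came from 311 host genes and held 1985 of 36218 back-spliced reads (5.48%). A back-spliced read crosses the closing junction of a circle, and the number of such reads was the measurement for each circle and library. The livers were from male C57BL/6J mice of 12 weeks of age fed a high-fat diet (HFD, 3 libraries) or a low-fat control diet (LFD, 3 libraries), with no genetic change in either group. Ribosomal RNA was depleted from total RNA, and the study's methods, but not the sample labels, add RNase R, which degrades linear transcripts. The labels do not tie a library to a named animal, so that p-values measure the spread between these libraries.

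As background, most circRNAs form when the spliceosome joins a downstream 5′ splice site to an upstream 3′ splice site in place of linear splicing. When both sites belong to 1 exon, the product is a circle of that exon alone, with no internal splice junction. Long introns on both sides, which can hold inverted repeats that pair with each other, and an exon that is itself long are known features of such exons. CircHIPK3, circZNF609 and circSLC8A1 are familiar single-exon circles, each made of exon 2 of its gene.

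The libraries held 6418, 6590 and 6005 back-spliced reads in HFD 1, 2 and 3 and 5384, 5531 and 6290 in LFD 1, 2 and 3. Reads of single-exon circles numbered 332, 354 and 317 on the HFD and 294, 321 and 367 on the LFD. The study's normalized signal, SRPBM, was the count times a single factor of each library, 0.2294 to 0.2768 SRPBM per read. HFD 1 and LFD 3 stood apart from the other libraries in the share of reads from intronic circRNAs, 10.8% and 8.28% against 4.56% to 5.43%, and had the higher base quality of the series, so results are also given without these libraries where they change. As a check of tissue, 13 of 15 hepatocyte marker genes hosted a circRNA of any class, with 111 reads. Marker genes of leukocytes, endothelium, cholangiocytes and stellate cells together gave circRNAs from 4 genes, with 9, 5, 0 and 1 reads. None of the marker genes hosted a single-exon circle. A circRNA is no measure of its host mRNA and the marker lists differ in size, so these reads are a check of origin only. Fewer cells of a type also cannot be told apart from less RNA per cell in whole liver.

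The sequences show the back-splice of 5 abundant coding circles found in every library, and of the Mlxipl circle, which had the lowest p between the diets. Each gives the last 30 bases of the exon in lower case and then its first 30 bases in capitals, 5′ to 3′ on the strand of the gene, so that the junction lies where the capitals begin. They were read from GENCODE M21 transcripts on GRCm38.
Nfix, exon 2, chr8:84771784-84772315, minus strand: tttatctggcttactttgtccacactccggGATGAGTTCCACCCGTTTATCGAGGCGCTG
Thrb, exon 4, chr14:17963061-17963321, plus strand: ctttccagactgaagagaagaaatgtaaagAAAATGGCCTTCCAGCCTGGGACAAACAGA
Insr, exon 2, chr8:3258383-3258934, minus strand: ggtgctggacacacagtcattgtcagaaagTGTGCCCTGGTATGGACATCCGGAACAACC
Lrp6, exon 2, chr6:134541652-134542045, minus strand: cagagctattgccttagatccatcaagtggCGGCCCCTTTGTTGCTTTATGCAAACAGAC
Cdyl, exon 5, chr13:35815909-35816575, plus strand: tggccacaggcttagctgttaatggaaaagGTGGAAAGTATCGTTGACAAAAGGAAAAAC
Mlxipl, exon 11, chr5:135133252-135133408, plus strand: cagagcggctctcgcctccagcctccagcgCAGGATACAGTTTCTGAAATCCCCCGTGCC

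Most single-exon circles were whole internal exons of their host gene. In GENCODE M21, 316 of the 338 (93.5%) coincided, to within 1 bp, with a complete internal exon, and these held 1700 reads (85.6% of the reads of single-exon circles). Both ends lay exactly on annotated exon edges in 309, and in 12 the start lay 1 bp from such an edge. By the isoform listed for each, the other 22 circles, with 285 reads, lay in a last exon (10 circles), in an isoform of 1 exon (8), in a first exon (2) or inside an internal exon (2). None of these 22 carried the name of a circRNA database, whereas 147 of all 338 (43.5%) did.

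The circles were long for single exons. Their length ranged from 102 to 5772 bp with a median of 306 bp and quartiles of 194.2 and 629.5 bp. The 316 whole internal exons had a median of 311.5 bp, and 105 of them (33.2%) exceeded 500 bp. The 180243 distinct internal exons of protein-coding transcripts had a median of 123 bp with 2.25% over 500 bp, and the 4511 internal exons of the host genes themselves had a median of 136 bp. In isoforms with at least 3 internal exons, the circularized exon was the longest internal exon of its isoform in 151 of 289 cases (52.2%). The shortest single-exon circles with reads in at least 2 libraries came from Hivep1 (143 bp), Qk (144 bp) and Gm20521 (152 bp). The longest came from Tcf20 (5772 bp), Arhgap5 (3888 bp, in the first exon of its listed isoform) and Zfhx3 (2768 bp).

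**Figure D1:**
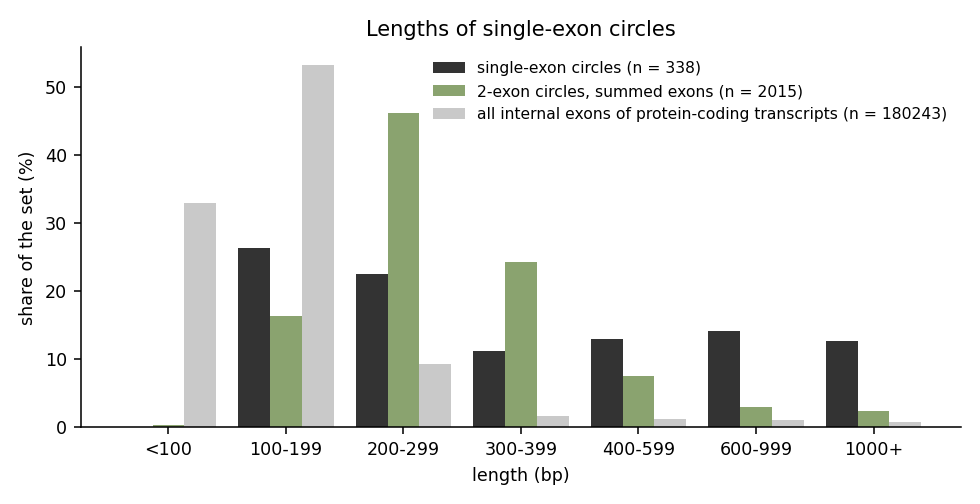
Share of each set (y axis, percent) by length in bp (x axis) for the 338 single-exon circles, the 2015 circles of 2 exons whose exons could be summed, and 180243 annotated internal exons. No single-exon circle and 0.347% of 2-exon circles were under 100 bp, where 32.9% of internal exons lie. Whether circles this short could be detected was not tested. Of single-exon circles 12.7% reached 1000 bp or more, against 2.38% of 2-exon circles and 0.734% of internal exons.

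Set against circles of 2 exons within each library, single-exon circles had the longer median in 5 of 6 libraries. The median of the circles detected was 380, 406.5 and 430 bp in HFD 1, 2 and 3 and 379, 444 and 262 bp in LFD 1, 2 and 3. For circles of 2 exons the medians of summed exon length lay between 264 and 284 bp. LFD 3 was the exception, with 262 bp for single-exon and 264 bp for 2-exon circles. The mean difference of 106.33 ± 57.87 bp (SD, n = 6) did not pass an exact two-sided sign permutation test over libraries (p = 0.0625, also 0.0625 after adjustment over 6 such comparisons). Because abundant circles are detected in several libraries, the 6 differences are not fully independent, in this and in the comparisons within libraries that follow.

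Exon 2 was the exon most often circularized. Of the 316 whole internal exons, 123 (38.9%) were exon 2 of their isoform, with 55.2% of the reads, 40 (12.7%) were exon 3 and 32 (10.1%) exon 4. Every isoform with an internal exon has an exon 2, and fewer have each later one. The share of exon 2 among annotated internal exons was not computed, so these counts are no measure of a preference. The exon-2 circles were longer, with a median of 422 bp against 237 bp for later exons, and 45.5% of them against 30.6% had reads in at least 2 libraries. The start codon lay inside 68 of the 123 exon-2 circles (55.3%) and inside 14 of the 193 later ones. In each library, single-exon circles began in exon 2 more often than exonic circles of 2 or more exons did, with 39.2% to 46.8% against 29.2% to 32.7% and a mean difference of 12.2 ± 2.46 percentage points (SD, n = 6, exact sign permutation test, p = 0.03125, the smallest that 6 libraries allow, adjusted p = 0.0375).

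By coding content, 197 single-exon circles (58.3%) were coding sequence throughout, 83 (24.6%) held 5′ UTR and the start of the coding sequence, and 27 came from transcripts without coding sequence. These classes go by the isoform listed for the circle, so that the last also holds protein-coding genes such as Med13l. Only 3′ UTR was held by 11, only 5′ UTR by 10, and the end of the coding sequence with 3′ UTR by 10. Among the 196 whole internal exons that were coding throughout, 67 (34.2%) had a length divisible by 3, where 41.1% of 165378 annotated internal coding exons do. The 34.2% is over circle lengths and the 41.1% over annotated exon lengths. A circle start 1 bp from the exon edge changes the remainder, so the measures are not quite alike. In all 67, the host's reading frame ran around the circle without a stop codon. This was largely fixed in advance, since within annotated coding sequence only a codon across the junction could be a stop. It is a property of the sequence that says nothing of translation.

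The introns beside single-exon circles were long. The shorter of the flanking introns had a median of 6466 bp and the longer a median of 19554 bp over the 315 whole-exon circles with introns listed, against 3565 and 10097 bp for exonic circles of 2 or more exons. All introns beside internal exons in the annotation had a median of 1427 bp. Within libraries, the median shorter flanking intron of single-exon circles lay between 6658 and 12496 bp, and that of circles of 2 or more exons between 4253 and 4676 bp, higher in 6 of 6 libraries (mean difference 4850.3 ± 2380.1 bp, SD, exact sign permutation test, p = 0.03125, adjusted p = 0.0375).

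A group of 33 whole-exon circles (10.5%) instead had a flanking intron under 150 bp, a limit chosen after the values were seen. Among circles of 2 or more exons this held for 97 (1.62%). The 33 had a median length of 175 bp, came from late exons (median exon rank 8) and had a median GC content of 56.6% against 50% for the rest. Reads of 30 of the 33 (90.9%) were found in 1 library, against 60.3% of the other whole-exon circles, and 5 of the 33 had a database name. The 3 with reads in at least 2 libraries were those of Gm20521, Mlxipl and Slc38a4. LFD 3 held reads of 12 of the 33, and the other libraries of 5 to 7.

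Reads were spread unevenly over the circles. Of the 338, 121 (35.8%) had a single read in the whole series, the median was 2 reads, and 35 had 10 or more. The 10 circles with the most reads held 851 (42.9%). In recurrence, 215 circles (63.6%) had reads in 1 library, 54 in 2, 33 in 3, 15 in 4, 9 in 5 and 12 in all 6. The 12 circles found in every library held 905 reads (45.6%). Reads in at least 2 libraries were found for 36.4% of single-exon circles and 29.7% of exonic circles of 2 or more exons.

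Taken within a library, the share of single-exon circles that were also found in another library was 56.1% to 68.9%, and that of circles of 2 or more exons 54.9% to 57.9%. The difference of 7.92 ± 3.82 percentage points (SD, n = 6) had the same sign in 6 of 6 libraries (exact sign permutation test, p = 0.03125, adjusted p = 0.0375). When entries with starts 1 bp apart were summed, it was 5.67 points (exact p = 0.0625). A database name was carried by 48.2% to 64.9% of the single-exon circles of a library and by 39.4% to 42.9% of the others (6 of 6 libraries, difference of 17.2 ± 5.51 points, exact p = 0.03125, adjusted p = 0.0375). Mean reads per detected circle were 3.32 and 3.17, higher in 6 of 6 libraries (exact p = 0.03125, adjusted p = 0.0375), but for whole internal exons alone the difference was reversed, at -0.12 reads, and it was also reversed for circles with reads in at least 2 libraries, at -0.026 reads.

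Circles with reads in at least 3 libraries were longer exons between longer introns than circles with reads in 1 library. Whole-exon circles with reads in 1 library (201) had a median length of 242 bp and a median shorter flanking intron of 3900 bp, and 33.3% were exon 2. Those with reads in at least 3 libraries (64) had medians of 503.5 bp and 14459 bp, and 57.8% were exon 2. Length did not rise steadily with recurrence. Over all single-exon circles its median rose from 236 bp for 1 library to 429.5 bp for 2, 466 bp for 3 and 628 bp for 4. It was then 571 bp for 5 libraries (9 circles) and 406.5 bp for all 6 (12 circles). The ranges overlapped widely, and these values are given as a description over circles that share libraries and hosts.

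**Figure D2:**
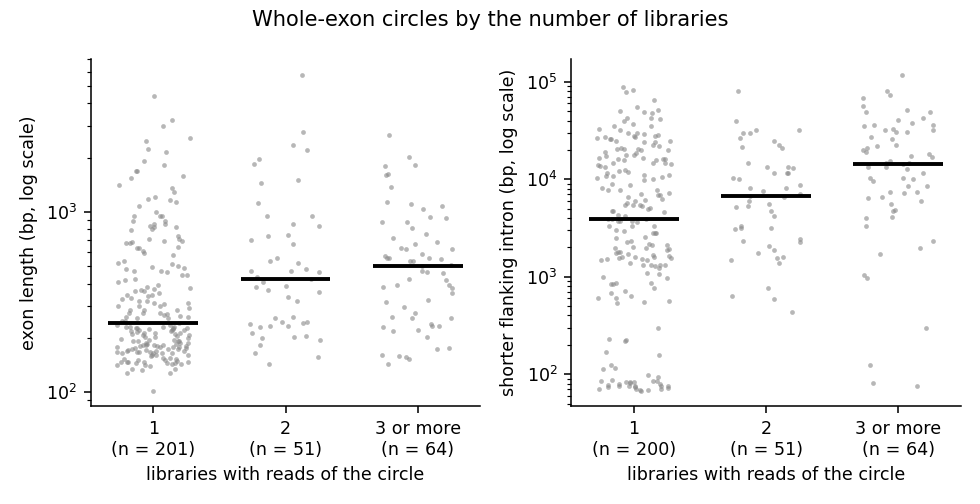
Exon length (left, bp, log scale) and shorter flanking intron (right, bp, log scale) of single-exon circles that are whole internal exons, by the number of libraries with reads (x axis). Each point is a circle and each bar a median, 242 bp for 1 library and 503.5 bp for 3 or more on the left, 3900 and 14459 bp on the right.

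The most abundant single-exon circle was exon 2 of Nfix (mmu_circ_0001704, 532 bp), which encodes a transcription factor of the nuclear factor I family. It had 23, 31 and 27 reads in HFD 1, 2 and 3 and 28, 24 and 31 reads in LFD 1, 2 and 3. No library was far from the others and the diets overlapped, with 6.81 ± 1.36 and 7.42 ± 0.766 SRPBM (SD, n = 3). These reads were 97% of all back-spliced reads of Nfix. In edgeR its log2 fold change of HFD over LFD was -0.23 ± 0.46 (SE, unadjusted p = 0.619, adjusted p = 0.980).

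Med13l encodes a subunit of the Mediator kinase module, and its circle of exon 2 (mmu_circ_0001396, 238 bp) had 35, 9 and 13 reads on the HFD and 15, 11 and 50 on the LFD. The high values were those of HFD 1 and LFD 3, 1 in each diet, and the diets overlapped. Its log2 fold change was -0.55 ± 0.52 (SE, edgeR, unadjusted p = 0.286, adjusted p = 0.980). Without LFD 3 it was 0.41, so that its direction rests on that library, and without HFD 1 it was -1.35 (unadjusted p = 0.0319).

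Circles of genes of hormone action were among the 12 in every library. Thrb, the main thyroid hormone receptor of the liver, had 13, 13 and 17 reads on the HFD and 14, 20 and 8 on the LFD (exon 4, 261 bp, 63.9% of the host's back-spliced reads). Insr, the insulin receptor, had 9, 10 and 15 reads against 5, 9 and 13 (exon 2, 552 bp, 89.7%). For both genes the diets overlapped, with 3.62 ± 0.837 and 3.79 ± 1.71 SRPBM for Thrb and 2.88 ± 1.02 and 2.42 ± 1.05 for Insr on the HFD and LFD (SD, n = 3).

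The signalling genes Lrp6, a co-receptor of Wnt ligands, and Hipk3, a nuclear serine and threonine kinase, gave circles of exon 2. Lrp6 (394 bp) had 12, 9 and 8 reads on the HFD and 9, 2 and 6 on the LFD. Hipk3 (1099 bp, with the start codon) had 10, 3 and 9 against 5, 4 and 3, and this circle was the only circRNA of its gene. Cdyl, a chromodomain protein, had 3, 5 and 7 reads against 6, 6 and 1 (exon 5, 667 bp), and Kcnn2, a calcium-activated potassium channel, had 1, 9 and 9 against 3, 3 and 1 (exon 6, 419 bp). Both circles were again the only circRNA of their gene. Single reads came from LFD 3 for Cdyl and from HFD 1 and LFD 3 for Kcnn2, and the diets overlapped for these 4 genes.

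A further 3 circles found in every library were less certain in their gene or exon. The circle listed under Gm20521 (mmu_circ_0005281, 152 bp, chr14:54897121-54897272) had 14, 13 and 7 reads on the HFD and 11, 15 and 10 on the LFD, and its exon is also an exon of Pabpn1, the nuclear poly(A)-binding protein, at the same place. Its flanking introns of 81 and 744 bp were far shorter than the median of single-exon circles. The circle listed under Rbm4, an RNA-binding protein of splicing (circRNA1677, 843 bp), had 11, 14 and 6 reads against 4, 10 and 12 and lay inside the last exon, in the 3′ UTR, and not at the exon's start. The circle listed under Gm9762 had 10, 34 and 19 reads against 37, 23 and 10.

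**Figure D3:**
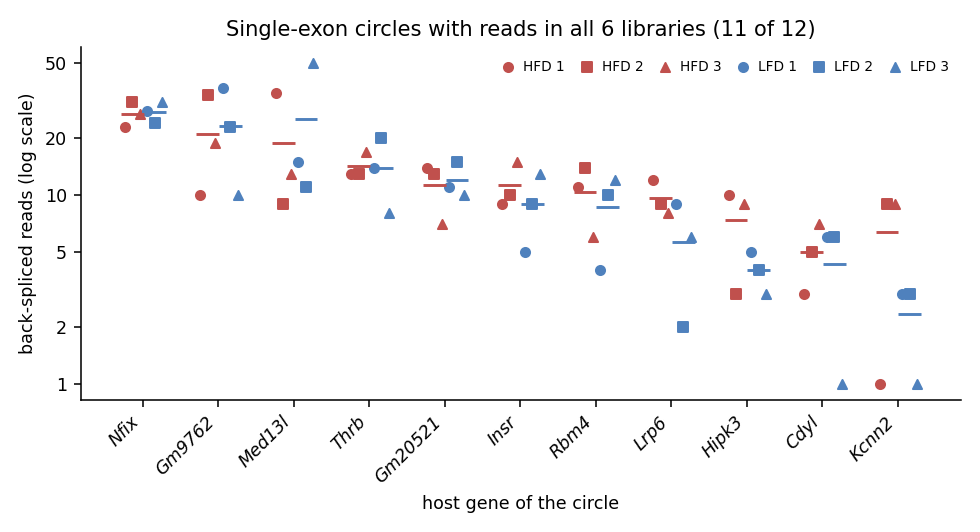
Back-spliced reads (y axis, log scale) of 11 of the 12 single-exon circles with reads in all 6 libraries, by host gene (x axis); HFD libraries are red, LFD libraries blue, with 1 marker per library and bars at the diet means. The diets overlap for all 11, and the Med13l circle has its highest values, 35 and 50 reads, in HFD 1 and LFD 3.

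Gm9762 is a processed pseudogene, an intronless copy of an mRNA that was reinserted into the genome. All 338 circles were therefore searched against all GENCODE M21 transcripts for near copies in other genes, with at least 90% identity over at least 90% of the circle. A near copy at another place was found for 24 circles, with 212 reads. In 4 of them, with 165 reads, the copy consisted of several whole exons of the other gene joined together, and these 4 were all 4 circles listed in processed pseudogenes. In all 4, the matching stretch began and ended exactly on exon edges of the other gene, and a circRNA of exactly those exons was listed for it.

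The Gm9762 circle (374 bp, chr3:78966402-78966775) was identical in all its bases to exons 2 to 6 of Ube2d2a, a ubiquitin-conjugating enzyme. The 5-exon circRNA of Ube2d2a had 8, 16 and 11 reads on the HFD and 19, 0 and 6 on the LFD, 60 reads against the 133 listed for Gm9762.

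The Gm4939 circle (337 bp, chr14:18544769-18545105) differed in 9 bases from exons 2 to 4 of Vps4b, an ATPase of the ESCRT machinery, whose 3-exon circRNA had 0, 0 and 0 reads on the HFD and 1, 0 and 2 on the LFD. The Gm20796 circle (349 bp, chr8:20882568-20882916) had 5 reads, all in LFD 3, and was 93.4% identical to exons 7 to 9 of Prr14l. The circRNA of those 3 exons, listed under the overlapping gene Gm20671, had 39 reads, with 0, 14 and 10 on the HFD and 2, 8 and 5 on the LFD. The sequences show the back-splice junctions of 2 of these pairs, written as above, since the junction is the stretch that a back-spliced read reports. They were identical over all 60 bases for Gm4939, as for Gm9762, and differed in 3 bases for Gm20796.
Gm4939, chr14:18544769-18545105, minus strand: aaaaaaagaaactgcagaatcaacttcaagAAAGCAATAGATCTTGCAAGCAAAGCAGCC
Vps4b, exons 2 to 4, chr1:106786703-106791789, minus strand: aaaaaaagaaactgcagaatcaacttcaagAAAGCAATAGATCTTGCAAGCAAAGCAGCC
Gm20796, chr8:20882568-20882916, minus strand: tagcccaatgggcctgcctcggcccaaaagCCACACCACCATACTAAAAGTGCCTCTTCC
Prr14l, exons 7 to 9, chr5:32819866-32822138, minus strand: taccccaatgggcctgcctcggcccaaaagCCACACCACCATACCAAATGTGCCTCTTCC

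From the junction alone, a read of the Gm9762 or Gm4939 circle cannot be told apart from a read of the multi-exon circRNA of the other gene, and the 4 pseudogene entries are single-exon only as listed. The near copies of the other circles included Rn7s1 and Rn7s2, identical 7SL RNA genes with 8 and 4 reads, and the exons of Gon4l and 5830417I10Rik, with 1 and 3 reads. Reads of these circles are uncertain in their gene.

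**Figure D4:**
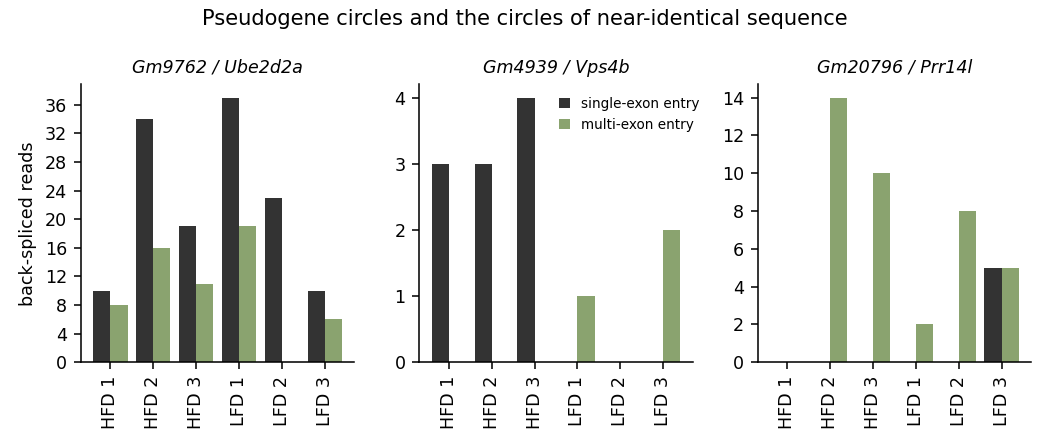
Back-spliced reads (y axis) by library (x axis) of 3 of the 4 circles listed in processed pseudogenes (dark bars) and of the multi-exon circRNA with the same or nearly the same sequence (green bars). For Gm9762 both entries have reads in 5 of 6 libraries, and for Gm4939 the 10 reads of the pseudogene entry are all on the HFD and the 3 reads of the Vps4b circRNA all on the LFD.

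The other circles outside whole internal exons had few reads each, Rbm4 apart. Apoe, the apolipoprotein of remnant lipoproteins, had 4 such circles, the most of any host, with 25 reads, 2 in its last exon and 2 inside an internal exon of an isoform without coding sequence. Of these, circRNA3103 had 2 reads in HFD 2 and 9 in LFD 3, and circRNA1754, circRNA1755 and circRNA4080 had 8 reads in HFD 1, 4 reads in HFD 1 and 2 reads in HFD 3. Scd1, stearoyl-CoA desaturase, had circles of 211 and 206 bp in its 3′ UTR with 3 and 2 reads, all in LFD 3. Of the 22 circles outside whole internal exons, 14 had reads in 1 library, and 11 of these 14 (78.6%) were in HFD 1 or LFD 3, against 75 of 201 (37.3%) for whole-exon circles. Whether base quality plays a part in this was not tested.

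Most host genes gave 1 single-exon circle, with 287 of 311 giving 1, 22 giving 2, and Elf1 and Apoe giving 3 and 4. After Apoe and Elf1, the hosts with the most such circles, ordered by reads, were Insr, Rbm4 and Lpp with 2 each. In 7 hosts the pair was 1 exon listed with starts 1 bp apart, as in Elf1, where such entries of exon 2 had 3 reads in HFD 3 and 3 reads in LFD 3. No library had reads of both entries in any of the 8 such pairs that include a single-exon circle (0 of 27 cases with reads of either). A circle of 2 or more exons was also listed for 179 hosts (57.6%), and in 116 hosts every back-spliced read was from a single-exon circle.

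To ask which single-exon circles differed between the diets, counts were compared in edgeR's quasi-likelihood test over all 2041 circRNAs with reads in at least 2 libraries, of which 123 were single-exon circles. The thresholds, p below 0.05 before adjustment and a log2 fold change of 1 or more in size, were passed by 2 of the 123 (1.63%), 1 higher and 1 lower on the HFD, where 2.4% of all circRNAs tested passed. After Benjamini-Hochberg adjustment over all 2041, 0 of the 123 were under 0.05, with a lowest adjusted p of 0.694, and 2 had an unadjusted p under 0.05. The count was 1 with DESeq2, with limma and with edgeR's exact test. The median log2 fold change was -0.12 for the single-exon circles and -0.13 for all circRNAs tested, and 56 of the 123 were above 0.

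The circle of exon 11 of Mlxipl (circRNA4550, 157 bp) was lower on the HFD by these unadjusted thresholds. Mlxipl encodes ChREBP, a transcription factor that switches on glycolytic and lipogenic genes in response to carbohydrate. The circle had 0 reads in every HFD library and 2, 11 and 2 reads in LFD 1, 2 and 3. The mean SRPBM on the LFD was 1.37 ± 1.45 (SD, n = 3). LFD 1 and LFD 3 lay below the level of 3 reads that a count of 0 allows, so no fold is given. With such counts a two-sided exact permutation test over libraries must give p = 0.1, the smallest that 3 against 3 allow. It adds no support, since the circle was chosen by edgeR on the same counts and passed the filter through its LFD reads alone. In edgeR the unadjusted p was 0.00818 and the adjusted p 0.694. Without LFD 2, which held 11 of the 15 reads, the unadjusted p was 0.0733. The circle made up 7.54% of the back-spliced reads of Mlxipl, where 3 multi-exon circles held 182, and its flanking introns of 75 and 135 bp placed it among the 33 circles with a short flanking intron. Its whole exon is printed in lower case, with no part set apart, since it is the circle with the lowest p between the diets.
Mlxipl, exon 11, chr5:135133252-135133408, plus strand: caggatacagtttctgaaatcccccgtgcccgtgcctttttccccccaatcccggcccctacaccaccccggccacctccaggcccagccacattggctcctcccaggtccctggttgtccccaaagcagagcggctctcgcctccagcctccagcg

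The Gm4939 circle (circRNA1639) was higher on the HFD as listed, with 3, 3 and 4 reads against 0 in every LFD library. These counts likewise fix the exact permutation p at 0.1, which adds no support. The reads of the circle lay at the level of 3 reads that a count of 0 allows, so no fold is given. In edgeR the unadjusted p was 0.0459 and the adjusted p 0.694. Summed with the circRNA of Vps4b that has the same junction, the reads were 3, 3 and 4 on the HFD and 1, 0 and 2 on the LFD, and the log2 fold change was 1.44 (unadjusted p = 0.434), so that the call was lost. The call was also lost on leaving out any 1 of the 6 libraries (unadjusted p of 0.0558 to 0.0905), with no filter on low counts (0.0542), with the base quality class as a term (0.0613), with the replicate block (0.148), without HFD 1 and LFD 3 (0.0810), and by edgeR's exact test (0.142) and DESeq2 (0.0884). In limma on log2(SRPBM + 1) the unadjusted p was 0.00422 but the log2 fold change of 0.88 was under 1.

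By SRPBM alone, 5 of the 123 single-exon circles tested (4.07%) had no overlap between the diets, where 4.95% of all circRNAs tested had none. Beside Mlxipl and Gm4939, these were Kat6b, with 1, 0 and 0 reads on the HFD and 2, 1 and 2 on the LFD, R3hcc1l, with 1, 2 and 1 against 0, 0 and 0, and Depdc7, with 0, 1 and 0 against 1, 2 and 4. In one diet each of these 5 had 0 or 1 reads per library, and for Depdc7 and Kat6b the diets touched at 1 read before scaling. The 12 circles with reads in every library had log2 fold changes between -0.55 and 1.18 with SEs of 0.46 to 1.28, 5 above 0 and 7 below, and the lowest unadjusted p among them was 0.286.

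Of 9 genes known as hosts of single-exon circles, 7 had one here (Cdyl, Foxo3, Hipk2, Hipk3, Pvt1, Slc8a1 and Zfp609), and these circles held 112 of the 114 back-spliced reads of those genes. Zfp609, the mouse gene of circZNF609, had 0, 4 and 8 reads on the HFD and 0, 5 and 3 on the LFD (exon 2, 874 bp, with the start codon). Hipk2, a kinase of the Hipk3 family, had 3, 0 and 5 against 5, 5 and 1 (exon 2, 1084 bp). Foxo3, a forkhead factor held in check by insulin signalling, had 1, 0 and 2 reads on the HFD and 0 on the LFD (exon 3, 1436 bp), and Pvt1, a long noncoding RNA, had 4, 0 and 0 against 0, 1 and 2. The Slc8a1 circle (1830 bp) had 1 read in LFD 3. None of the 6 with reads in at least 2 libraries passed the test of the diets, with log2 fold changes from -0.62 to 3.10 and a lowest unadjusted p of 0.127 in edgeR (adjusted p = 0.694).

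In a list of 44 genes of lipid and bile metabolism, the circles of all kinds held 1104 reads, and 89 of these were from 5 single-exon circles, among them those of Lpin2, Mlxipl and Scd1. Of the 2 with reads in at least 2 libraries, the Mlxipl circle passed the thresholds, by unadjusted p. In a list of 24 insulin and nutrient signalling genes, 4 single-exon circles of Foxo1, Insr and Pik3r1 held 74 of 188 reads. Pik3r1, the regulatory subunit of PI 3-kinase, had 1, 4 and 0 reads on the HFD and 1, 0 and 2 on the LFD (exon 2), and a further circle of exon 3 of Insr had 1 read each in LFD 1 and LFD 2. None of the 3 insulin circles tested passed the thresholds.

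Of 27 chromatin and transcription regulators, 26 hosted circRNAs and 9 hosted 11 single-exon circles, with 35 of 494 reads. The 5 with reads in at least 2 libraries were those of Chd9, Ehmt1, Smarca2, Jmjd1c and Setd2, and Chd9, a chromatin remodeller, had the most, with 3, 5 and 0 reads against 1, 1 and 0. Of 16 RNA-binding regulators, 4 hosted 6 single-exon circles with 16 of 562 reads. Those in at least 2 libraries were Mbnl2, a splicing regulator, with 3, 0 and 0 against 2, 0 and 2 reads, and Qk, a splicing regulator known for promoting circles, with 1, 0 and 0 against 2, 0 and 0. In the chromatin and RNA-binding lists 0 circles passed the edgeR thresholds, and 0 had an unadjusted p under 0.05 (lowest 0.130 and 0.635).

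As a class, single-exon circles took 5.17%, 5.37% and 5.28% of the back-spliced reads in HFD 1, 2 and 3 and 5.46%, 5.80% and 5.84% in LFD 1, 2 and 3. Every HFD library was below every LFD library, with means of 5.28 ± 0.099% and 5.70 ± 0.21% (SD, n = 3). This separation gave p = 0.1 in a two-sided exact permutation test, the smallest that 3 against 3 allow, and an adjusted p of 0.4 over 4 such measures. The separation was lost as a share of exonic reads only, with a difference of -0.35 points (exact p = 0.2), and HFD 1, which had the highest share of intronic reads, was then above LFD 1. It was also lost with whole internal exons only (-0.36 points, exact p = 0.2). Without the 4 pseudogene circles the difference was -0.35 points (exact p = 0.3), and without the Med13l circle it was -0.31 points (exact p = 0.4), so that the diets overlapped in both cases. Reads of single-exon circles outside whole internal exons made up 10.1% to 17.2% of single-exon reads in the HFD libraries and 10.6% to 17.4% in the LFD libraries.

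The number of single-exon circles with reads was 102, 104 and 94 on the HFD and 90, 95 and 114 on the LFD, with means of 100 ± 5.29 and 99.7 ± 12.7 (SD, n = 3, exact permutation test, p = 1). Their read-weighted mean length was 571 ± 21.9 bp on the HFD and 493 ± 83.7 bp on the LFD (exact p = 0.3, adjusted p = 0.6), with 559.5, 557.4 and 596.3 bp against 464.1, 587 and 427.2 bp. Their total SRPBM was 83.8 ± 7.05 against 88.0 ± 9.28 (exact p = 0.6, adjusted p = 0.8). For all 3 measures the libraries of the diets overlapped. Only circles with reads in at least 2 libraries gave a read-weighted length difference with the smallest p that 3 against 3 allow (85.4 bp, exact permutation test, p = 0.1).

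**Figure D5:**
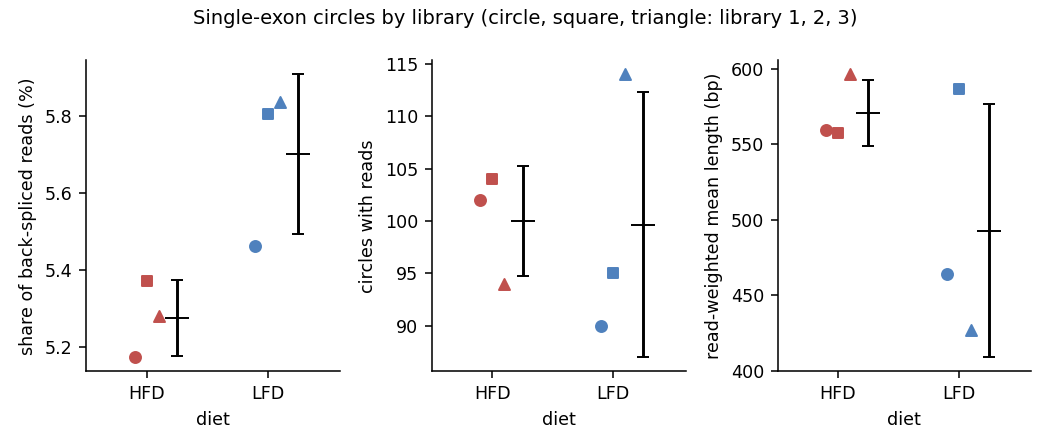
Share of back-spliced reads (left, percent), number of circles with reads (middle) and read-weighted mean length (right, bp) of single-exon circles in the 3 HFD and 3 LFD libraries; axes do not start at 0. Points are libraries and the bars beside them the mean and SD. The share is 5.17% to 5.37% on the HFD and 5.46% to 5.84% on the LFD, while the other measures overlap.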

How the data were processed

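Titles gave the diet and number of each of the 6 liver libraries. By the study's methods, adapters and poor reads were removed with Cutadapt, reads were mapped with Bowtie2, TopHat2 and TopHat-Fusion, and circRNAs were called with CIRCExplorer2 and CIRI. The submitters' processing notes name cutadapt 1.9, TopHat2 2.0.4 and mm9, but the deposited positions matched exon edges of GENCODE M21 on GRCm38, which was used here. The authors deposited a raw count of back-spliced reads for each circRNA and library, and a normalized signal, SRPBM, scaled to mapped reads. The members and gene lists were chosen with earlier results of these data known.

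For circRNAs seen in at least 2 libraries, counts were tested with edgeR (glmQLFit and glmQLFTest, TMM), adjusted over all 2041. For library values, exact permutation tests were two-sided (20 arrangements of 3 against 3, or 64 sign arrangements of the 6 within-library differences). The edgeR test was checked on simulated counts, and the permutation tests on a few set values with known answers. Exons, coding parts and sequences were read from GENCODE M21, and near copies were found with blastn 2.17.0 (identity and cover of at least 90%). Circles named are the 10 with the most reads, those past the thresholds, those in all libraries, the 3 longest and 3 shortest in at least 2 libraries, the 5 hosts with the most circles and list members in at least 2 libraries. Others named were chosen after their values were seen, and a few circles that the rule names are not reported here. Alternatives were other normalizations, filters and tools, the replicate number or base quality class as a term, libraries left out and summed entries. The smallest signal was taken as 3 reads, and libraries of 5384 to 6590 reads limit what a count of 0 shows. Tests across circRNAs ran in R 4.3.3 (edgeR 4.0.16, DESeq2 1.42.0 and, for log2(SRPBM + 1), limma 3.58.1). Tables, library tests and figures were made in Python 3.11.15 with SciPy 1.17.1, NumPy 2.4.6, pandas 2.3.3 and matplotlib 3.10.9.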

Additional observations from a re-analysis of the deposited data

How the results depend on the processing

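The difference of diets in the share of reads kept its sign in all alternatives run, though not always the separation of the libraries, between -0.5446 and -0.3576 with a library left out, and with the replicate number as a block it was -0.4251, with an exact p of 0.25, the smallest that 3 pairs allow. With the replicate block, 1 single-exon circle passed the thresholds in place of 2, and Gm4939 was the circle lost. Deviations from the diet mean had correlations of -0.0617, 0.116 and -0.0541 between libraries of the same number. Between libraries of different numbers they lay between -0.170 and 0.211. No pairing by number was seen, but with so few reads per circle these values cannot exclude it. The count was also 1, with Gm4939 lost, with the base quality class as a term, with HFD 1 and LFD 3 left out, with near copies summed, with the edgeR exact test, limma and DESeq2, and 0 to 3 with a library left out, 0 without LFD 2 and 1 without HFD 3, LFD 1 or LFD 3. Over all circRNAs tested the count of 49 became 10 with the replicate block, 13 with the base quality class, 26 without HFD 1 and LFD 3, 11 with the exact test, 20 with limma, 11 with DESeq2, 30 with at least 10 reads per circle and 20 to 39 with a library left out.

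Without HFD 1 and LFD 3 the differences between single-exon and other exonic circles were 0.179 reads per circle, 6.63 points of recurrence, 5900 bp of shorter intron, 13.2 points of exon 2 and 18.9 points of database names, all of the same sign with exact p = 0.125, the smallest that 4 libraries allow. With a library left out they were 0.124 to 0.167 reads, 7.01 to 9.19 points, 4256 to 5339 bp, 11.9 to 13.2 points and 16.1 to 18.97 points, at best with exact p = 0.0625. Recurrence was 5.67 points with entries 1 bp apart summed. Reads per circle were reversed to -0.0255 with circles of at least 2 libraries, -0.12 with whole internal exons and -0.0628 without the pseudogene circles. The length difference to 2-exon circles passed with circles of at least 2 libraries (179.5 bp) and as a read-weighted median (103.5 bp), both exact p = 0.03125. As a median over detected circles, this length difference was 95.6 to 128 bp with a library left out, at best with exact p = 0.0625.

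Of the diet totals, SRPBM reversed to 4.04 without HFD 1 and LFD 3, was 7 in reads, and ranged from -9.01 to 0.231 with a library left out. The difference in the number of circles, 0.333, reversed to -3.67 after thinning to 5384 reads and to -0.667 with whole internal exons or without the pseudogene circles, and ranged from -4.5 to 7.5 with a library left out. Read-weighted length differed by 45.5 to 125 bp with a library left out. The causes were not tested.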
